A study of Homo sapiens with 18 samples.

Results

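The 8 genes described here are recurrently lost, mutated or amplified in pancreatic ductal adenocarcinoma, and their RNA was followed across 2 human cell lines of this cancer. These members, CDKN2A, CDKN2B, MTAP, SMAD4, MYC, ARID1A, RNF43 and TGFBR2, were chosen by name, and each had 1 row among the 26249 gene rows of the deposited expression table. PATU-8988T and PATU-8902 cells, both established lines, were kept for 24 h in the vehicle DMSO, or exposed during 6 h or 24 h to the kinase inhibitor DCLK1-IN-1 at 2.5 µM, which targets doublecortin-like kinase DCLK1. Each of the 6 groups held 3 biological replicates, so that 9 libraries came from each line. No DMSO group was taken at 6 h, and the drug groups at 6 h and 24 h share the same DMSO libraries. All libraries were of polyadenylated RNA from cells in standard culture, with spike-in RNA added in proportion to cell number. A difference between the lines is a difference between these 2 cultured lines and not between classes of tumour.

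CDKN2A encodes both INK4a, an inhibitor of the cyclin D kinases, and ARF, which stabilises p53. CDKN2B encodes the related inhibitor INK4b. MTAP, their neighbour on the chromosome, encodes the phosphorylase that recycles methylthioadenosine to methionine, and the 3 genes are often deleted together in this cancer. SMAD4 is the common partner of the receptor-activated SMADs in TGF-beta signalling, and TGFBR2 is the type II receptor that binds the ligand. MYC is a growth-promoting transcription factor, ARID1A is the DNA-binding subunit of the BAF form of the SWI/SNF chromatin remodeller, and RNF43 is a ubiquitin ligase that removes WNT receptors from the cell surface.

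Values are FPKM, fragment numbers normalised to transcript length and library size and scaled by the authors between libraries, and levels of different genes can therefore be compared per length. No value in the table was 0. In each library, between 6993 and 6998 gene rows carried 1 shared low value, which lay between 0.0795 and 0.118 FPKM, and genes without signal lay at or close to it. Here a gene is called at the floor in a line when all 9 of its libraries were at or under 1.5 times the shared value. The spike-in controls were level across libraries and the genes were not. Over the 11477 genes whose mean reached 1 FPKM, the library median ran from 6.12 to 12.1 FPKM in PATU-8988T and from 10.7 to 17.4 FPKM in PATU-8902. Differences are on log2(FPKM + 1), as deposited or after each library was shifted to a common median (median-centred). Both scales are therefore given for the tested members between the lines in DMSO and for the counts of calls in the lists. A difference printed without a named scale is as deposited. As deposited, the median difference of all tested genes between the lines, PATU-8902 minus PATU-8988T, was 0.45 in DMSO, 0.44 at 6 h and 0.84 at 24 h. Median-centred it was -0.05, -0.03 and -0.07, and centring lowers the difference of every gene in such a contrast by the same amount. The table gives no counts, so the depth behind each value is unknown. In bulk RNA, fewer cells that carry a transcript and less of it per cell cannot be told apart.

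The label of an epithelial cancer was checked against keratins and adhesion genes. PATU-8902 had all 6 epithelial markers at a median of at least 1 FPKM, and their summed level ran from 2881 to 5304 FPKM. PATU-8988T had 3 of 6 (KRT8, KRT18 and EPCAM), with a sum from 381 to 973 FPKM. The duct keratin KRT19 was at the floor in all 9 PATU-8988T libraries, where the adherens junction gene CDH1 had a median of 0.128 FPKM. No acinar, endocrine, fibroblast or endothelial marker had a median of 1 FPKM or more in either line, and of 7 immune markers only CD68 did. DCLK1 itself, the target of the inhibitor, lay between 19.1 and 36.1 FPKM in all libraries, which checks that it was transcribed and not that the kinase was inhibited.

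**Figure D1:**
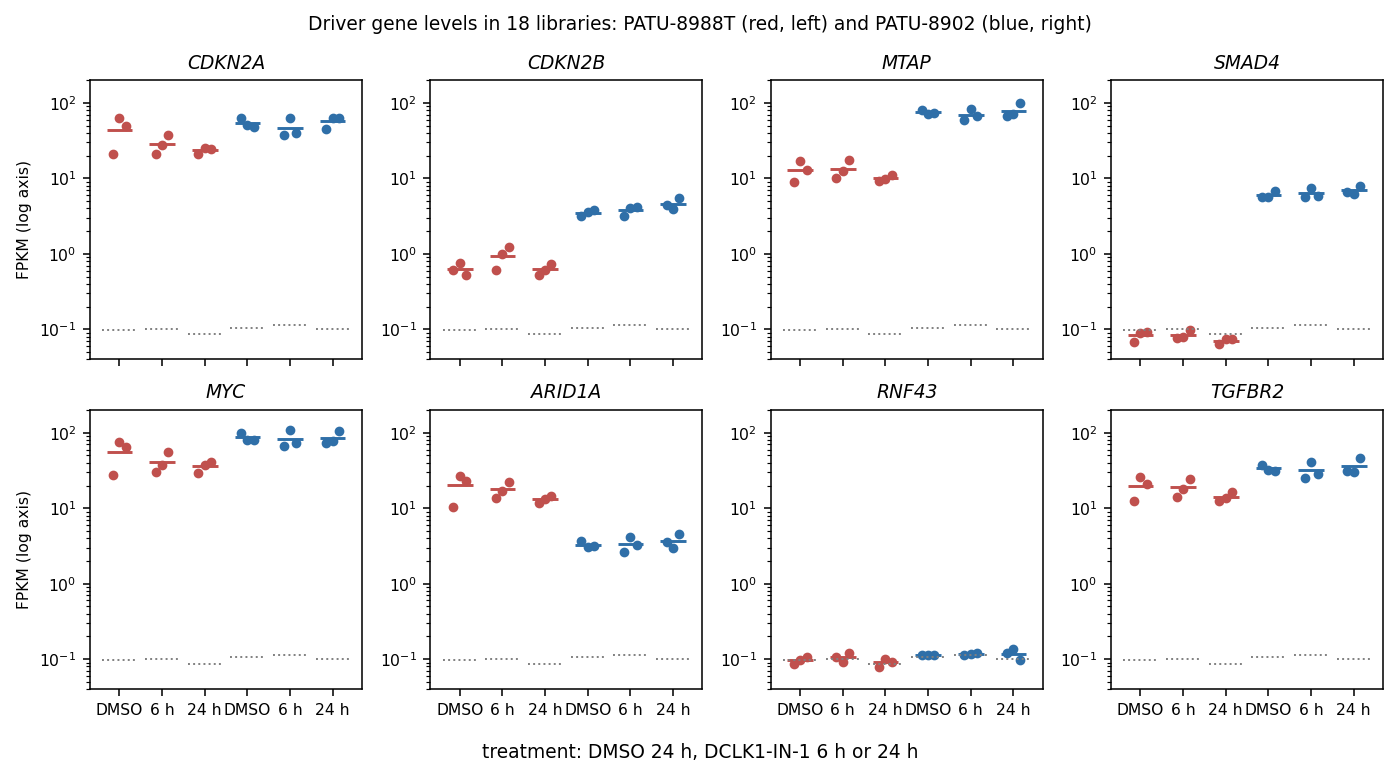
FPKM of each driver gene (log axis) in 18 libraries by group, PATU-8988T in red and PATU-8902 in blue; points are libraries, bars are means of 3, and dotted lines are the mean low value shared by most rows. SMAD4 sits at or under the dotted line in PATU-8988T alone, RNF43 sits near it in both lines, and ARID1A is the 1 member that is lower in PATU-8902 than in PATU-8988T without overlap.

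SMAD4 and RNF43 were the members at the floor. SMAD4 was at the floor in PATU-8988T and measured in PATU-8902, and RNF43 was at the floor in both. The other 6 members were above the floor in every library of both lines, CDKN2A, CDKN2B and MTAP among them. These are RNA levels and do not show whether the DNA of a locus is present.

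SMAD4 in PATU-8988T read 0.0676, 0.0900 and 0.0926 FPKM in the 3 DMSO libraries, 0.0773, 0.0786 and 0.0992 at 6 h, and 0.0643, 0.0745 and 0.0734 at 24 h. All 9 values were at or below the shared value of their own library, at 0.780 to 0.923 times it. In PATU-8902 the same transcript read 5.63, 5.72 and 6.75 FPKM in DMSO, 5.73, 7.46 and 5.82 at 6 h, and 6.65, 6.25 and 7.94 at 24 h. In the DMSO fit by limma the log2 difference was 2.70 ± 0.14 (SE) as deposited (adjusted p = 4.29e-12) and 2.19 ± 0.20 median-centred (adjusted p = 5.34e-08). These sizes are set by the floor and the pseudocount of 1 and do not measure a fold, since one side carries no measured level. SMAD4 passed the filter on low values only through PATU-8902, so a difference was bound to appear. Being at the floor in only one line was uncommon: of 1035 genes whose PATU-8902 mean was within 20% of that of SMAD4, 18 (1.74%) were at the floor in all 9 PATU-8988T libraries.

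The genes on either side of SMAD4 were read in the order of the RefSeq table for GRCh38.p14, which was used for order alone because the deposited values were made on hg19. The nearest neighbours on one side were also low in PATU-8988T, but they were above the floor. ELAC1, a transfer RNA processing enzyme next to SMAD4, ran from 0.313 to 0.725 FPKM in PATU-8988T and from 2.25 to 3.87 FPKM in PATU-8902. ME2, the next gene and a mitochondrial malic enzyme, ran from 0.201 to 0.563 FPKM in PATU-8988T and from 13.0 to 21.04 FPKM in PATU-8902. Both differences passed the test in DMSO, at 1.45 ± 0.17 for ELAC1 (adjusted p = 5.69e-07) and 3.65 ± 0.17 for ME2 (adjusted p = 9.12e-13) as deposited, and at 0.95 ± 0.18 and 3.15 ± 0.14 median-centred. Both genes were under 1 FPKM in every PATU-8988T library and passed the filter on low values only through PATU-8902, so these tests add little to the levels.

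On the other side of SMAD4, the RNA-binding ubiquitin ligase MEX3C was at similar levels in both lines, with 7.46 to 15.2 FPKM in PATU-8988T and 9.65 to 16.2 FPKM in PATU-8902. Its median-centred difference was small and passed the test (-0.30 ± 0.06, adjusted p = 1.33e-04). Farther out, the kinetochore gene SKA1 had medians of 22.5 FPKM in PATU-8988T and 17.2 FPKM in PATU-8902. The methyl-CpG-binding genes had medians of 17.0 and 9.33 FPKM (MBD1) and of 13.3 and 25.2 FPKM (MBD2), and the CpG-binding CXXC1 of 8.57 and 5.18 FPKM, in the same order of lines. MAPK4, MRO and the netrin receptor DCC were at the floor in both lines. Among the 20 nearest genes with a row, 10 on each side, none was at the floor in PATU-8988T alone. At the floor in both lines were 6. Medians of at least 1 FPKM were found in both lines for 6, in PATU-8902 alone for 5 and in PATU-8988T alone for 0. Beside ME2 and ELAC1, those 5 were MYO5B (medians of 0.566 FPKM in PATU-8988T and 6.07 FPKM in PATU-8902), POLI (0.784 and 1.58) and RAB27B (0.183 and 3.39). MYO5B, POLI and RAB27B were chosen after their values were seen. SMAD4 was thus the single gene of its neighbourhood that was at the floor in PATU-8988T and above it in PATU-8902.

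**Figure D2:**
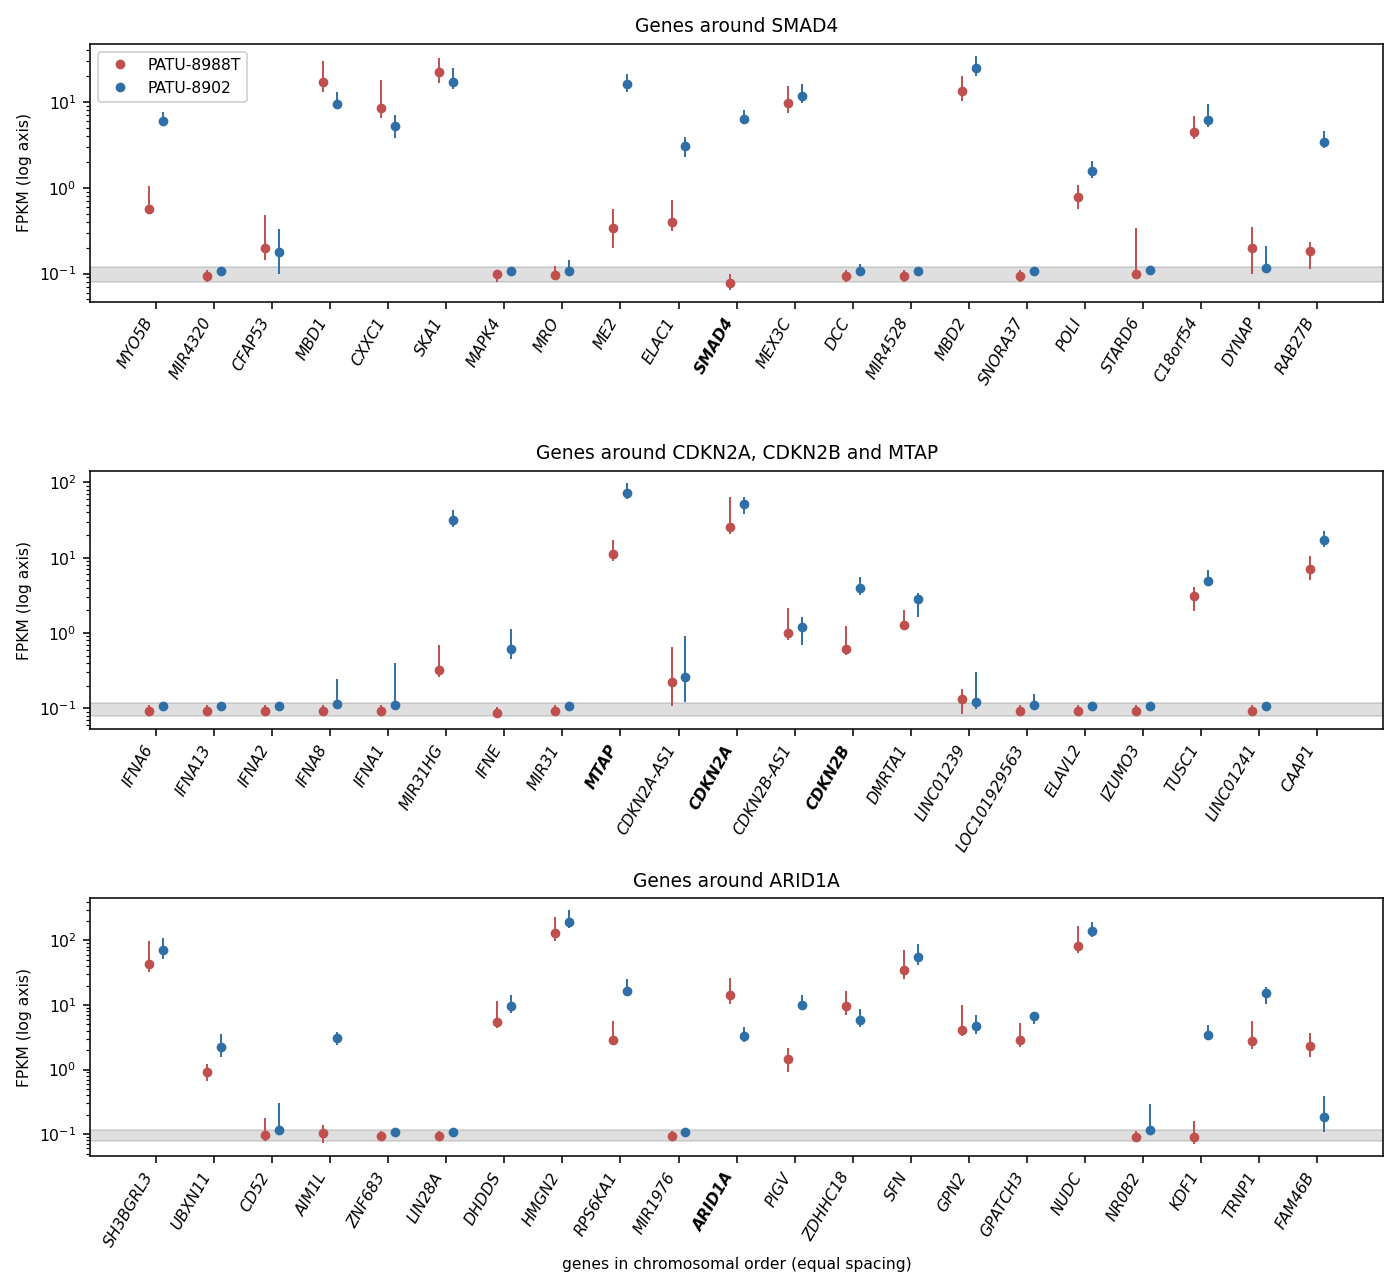
FPKM (log axis) of the genes on either side of SMAD4, CDKN2A and ARID1A, spaced equally in chromosomal order, with the median (point) and range (line) over 9 libraries of PATU-8988T (red) and PATU-8902 (blue); the grey band spans the shared low values. ME2 and ELAC1 lie between the band and 1 FPKM in PATU-8988T beside SMAD4 inside or under it, while MTAP, CDKN2A and CDKN2B are above the band in both lines.

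CDKN2A was among the higher members in both lines. In PATU-8988T it read 20.9, 62.9 and 49.4 FPKM in DMSO, 21.2, 28.0 and 37.2 at 6 h, and 20.9, 25.2 and 24.8 at 24 h. PATU-8902 gave 62.7, 51.1 and 47.8 FPKM in DMSO, 38.1, 63.7 and 40.1 at 6 h, and 45.7, 62.9 and 64.0 at 24 h. The lines overlapped over all libraries, and within DMSO the log2 difference was 0.40 ± 0.33 as deposited (adjusted p = 0.318) and -0.10 ± 0.15 median-centred (adjusted p = 0.552). Its sign in DMSO thus depends on the scale. At 24 h the difference was 1.24 ± 0.33 as deposited (adjusted p = 0.00268) and 0.33 ± 0.15 median-centred (adjusted p = 0.0601). The row sums the INK4a and ARF transcripts, so a loss that spares some exons would not show in it, and the strand setting of the counting is not known, so reads of CDKN2A and CDKN2A-AS1 cannot be told apart, nor those of CDKN2B and CDKN2B-AS1.

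CDKN2B was low in PATU-8988T, at 0.609, 0.746 and 0.523 FPKM in DMSO, 0.607, 1.01 and 1.23 at 6 h, and 0.518, 0.608 and 0.739 at 24 h. These values were 4.82 to 11.1 times the shared low value. PATU-8902 had 3.20, 3.54 and 3.87 FPKM in DMSO, 3.15, 4.10 and 4.16 at 6 h, and 4.51, 3.96 and 5.48 at 24 h. The lines did not overlap, the ratio of the line medians was 6.50, and the DMSO difference was 1.48 ± 0.16 as deposited (adjusted p = 1.72e-07) and 0.98 ± 0.18 median-centred (adjusted p = 1.66e-04). Like SMAD4, CDKN2B reached the mean of 1 FPKM only through PATU-8902. The overlapping CDKN2B-AS1 had medians of 0.998 FPKM in PATU-8988T and 1.20 FPKM in PATU-8902. In DMSO its limma difference had the opposite sign to that of CDKN2B, at -0.31 as deposited and -0.81 median-centred (adjusted p = 7.34e-04).

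MTAP was expressed in both lines and higher in PATU-8902. PATU-8988T read 8.97, 17.3 and 12.8 FPKM in DMSO, 10.2, 12.6 and 17.4 at 6 h, and 9.32, 9.79 and 11.2 at 24 h. PATU-8902 read 81.2, 72.4 and 73.1 FPKM in DMSO, 59.2, 82.9 and 67.5 at 6 h, and 67.1, 71.9 and 98.5 at 24 h. No PATU-8988T library reached the lowest PATU-8902 library, and the medians differed by a factor of 6.45. The DMSO difference was 2.49 ± 0.25 as deposited (adjusted p = 6.57e-08) and 1.99 ± 0.06 median-centred (adjusted p = 9.94e-14).

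Of the 20 genes nearest to CDKN2A with a row, 4 had medians of at least 1 FPKM in both lines, MTAP and DMRTA1 among them. At the floor were 8 in both lines and 3 in PATU-8988T alone. Of these 3, IFNA8 and IFNA1 were also at the floor in 6 and 7 of 9 PATU-8902 libraries, and were named after their values were seen. KLHL9, FOCAD, MLLT3, HACD4 and IFNB1, given below, belong to the list of genes around CDKN2A and are not among these 20. KLHL9, a substrate adaptor of a CUL3 ubiquitin ligase, had medians of 10.6 FPKM in PATU-8988T and 26.0 FPKM in PATU-8902, the focal adhesion gene FOCAD 7.89 and 11.03, the super elongation complex gene MLLT3 2.04 and 2.11, and DMRTA1 1.27 and 2.87. The long non-coding RNA MIR31HG differed most, with 0.262 to 0.699 FPKM in PATU-8988T and 25.5 to 43.5 FPKM in PATU-8902. It is no gene of the lists and was chosen after its values were seen. IFNE, the interferon of epithelia, was at the floor in PATU-8988T and ran from 0.451 to 1.13 FPKM in PATU-8902. The neuronal RNA-binding gene ELAVL2 was at the floor in both lines, HACD4 in PATU-8902 and in 8 of 9 PATU-8988T libraries, and the interferon gene IFNB1 in PATU-8988T and in 6 of 9 PATU-8902 libraries.

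ARID1A was the member with the opposite direction. PATU-8988T read 10.5, 26.6 and 23.2 FPKM in DMSO, 13.8, 17.1 and 22.5 at 6 h, and 11.6, 13.1 and 14.5 at 24 h. PATU-8902 read 3.63, 3.11 and 3.11 FPKM in DMSO, 2.64, 4.15 and 3.30 at 6 h, and 3.54, 2.997 and 4.60 at 24 h. Every PATU-8988T library was above every PATU-8902 library, and the median was 4.41 times higher. The DMSO difference, PATU-8902 minus PATU-8988T, was -2.21 ± 0.27 as deposited (adjusted p = 1.12e-06) and -2.71 ± 0.09 median-centred (adjusted p = 1.84e-13). The lowest PATU-8902 value was still 23.0 times the shared low value. Of the 20 nearest genes with a row, 11 had medians of at least 1 FPKM in both lines. PIGV, an enzyme of GPI anchor synthesis next to ARID1A, went the other way, with 0.904 to 2.17 FPKM in PATU-8988T and 8.90 to 14.4 FPKM in PATU-8902. PIGV was chosen after its values were seen.

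MYC was the highest member in both lines by median. PATU-8988T read 27.8, 75.1 and 65.7 FPKM in DMSO, 30.5, 37.3 and 56.0 at 6 h, and 29.6, 37.6 and 41.4 at 24 h, and over PATU-8902 the lowest, median and highest values were 66.0, 80.4 and 110 FPKM. The lines overlapped through PATU-8988T DMSO replicate 2. The DMSO difference did not pass (0.74 ± 0.33 as deposited, adjusted p = 0.0653, and 0.24 ± 0.12 median-centred, adjusted p = 0.0794). It passed at 6 h (1.00 ± 0.33, adjusted p = 0.0162) and at 24 h (1.22 ± 0.33, adjusted p = 0.00318), with median-centred values of 0.53 ± 0.12 and 0.30 ± 0.12. Without 1 of PATU-8988T 6 h replicate 1, PATU-8988T 6 h replicate 2 or PATU-8902 6 h replicate 2, the 6 h call as deposited was lost, and without PATU-8988T DMSO replicate 2 the DMSO difference was 1.01 (adjusted p = 0.0189). The DMSO call also came without PATU-8988T DMSO replicate 3 (0.91, adjusted p = 0.0473). Median-centred, the 24 h call (adjusted p = 0.0302) was lost without PATU-8988T 24 h replicate 1 or 3. It was also lost without PATU-8902 24 h replicate 2 or 3, and the adjusted p of these fits ran from 0.0529 to 0.128.

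TGFBR2 was higher in PATU-8902, with a ratio of the line medians of 1.89. PATU-8988T read 12.5, 25.6 and 20.8 FPKM in DMSO, 14.3, 18.2 and 24.4 at 6 h, and 12.6, 13.7 and 16.5 at 24 h, and over PATU-8902 the lowest, median and highest values were 25.3, 31.1 and 46.6 FPKM. Over all libraries, 8 of the 9 PATU-8902 values lay above the highest PATU-8988T value. The DMSO difference was 0.80 ± 0.27 as deposited (adjusted p = 0.0187) and 0.30 ± 0.05 median-centred (adjusted p = 1.06e-04). The call as deposited was lost without PATU-8988T DMSO replicate 1 (0.52, adjusted p = 0.1), without PATU-8902 DMSO replicate 1 (0.71, adjusted p = 0.0709) and in a fit of the compared groups alone (adjusted p = 0.0621).

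RNF43 did not rise above the floor in either line. PATU-8988T read 0.0862, 0.0974 and 0.108 FPKM in DMSO, 0.107, 0.0910 and 0.122 at 6 h, and 0.0791, 0.101 and 0.0930 at 24 h. PATU-8902 read 0.113, 0.113 and 0.113 FPKM in DMSO, 0.115, 0.118 and 0.120 at 6 h, and 0.122, 0.135 and 0.0966 at 24 h. The highest value was 1.10 times the shared value in PATU-8988T and 1.40 times in PATU-8902, and 5 PATU-8988T libraries and 0 PATU-8902 libraries were at or below it. The gene did not enter the test. MTMR4 and SUPT4H1, which lie near it, were expressed in both lines. They were chosen after their values were seen, with medians of 5.46 and 21.4 FPKM in PATU-8988T and 12.3 and 42.3 FPKM in PATU-8902.

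Ordered by median FPKM, the members in PATU-8988T ran MYC, CDKN2A, TGFBR2, ARID1A, MTAP and CDKN2B, with SMAD4 and RNF43 at the floor. Neighbours from MYC to MTAP in this order overlapped in their ranges, and CDKN2B stood below MTAP without overlap. In PATU-8902 the order was MYC, MTAP, CDKN2A, TGFBR2, SMAD4, CDKN2B and ARID1A, with RNF43 at the floor. There TGFBR2 and SMAD4 did not overlap, nor did SMAD4 and CDKN2B, and the other neighbours above the floor did.

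In DMSO, 5 of the 7 tested members differed between the lines as deposited, 4 higher and 1 lower in PATU-8902, beside 54.2% of all tested genes (41.8% higher and 12.4% lower). Median-centred the counts were also 5, with 4 higher and 1 lower, beside 72.2% (34.4% higher and 37.8% lower). At 6 h the counts were 6 and 6, beside 51.5% and 69.8%, and at 24 h 7 and 6, beside 71.4% and 71.6%. Over all 9 libraries of each line, CDKN2B, MTAP, SMAD4 and ARID1A did not overlap, beside 41.9% of tested genes, and TGFBR2 joined them after centring, beside 55.5%. These counts include SMAD4 and CDKN2B, which passed the filter through PATU-8902 alone. Differences between the lines were common among all tested genes, and a count of drivers that differ says little beside the levels given above.

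The pathway of SMAD4 and TGFBR2, both counted in it, was read through 20 ligands, receptors and SMADs, of which 16 were tested. In DMSO, 8 were higher and 2 lower in PATU-8902 as deposited, and 6 and 6 median-centred, beside 41.8% and 12.4%, and 34.4% and 37.8%, of all tested genes; the list's median difference was 0.51 and 0.01, beside 0.45 and -0.05 for all tested genes. Beside SMAD4, SMAD3, a receptor-activated partner, had medians of 10.5 FPKM in PATU-8988T and 62.0 FPKM in PATU-8902, a difference of 2.38 ± 0.28 (adjusted p = 7.39e-07; 1.88 median-centred). The ligand TGFB1 was lower in PATU-8902, at 7.82 against 12.9 FPKM (-1.10 ± 0.27, adjusted p = 0.00187). The inhibitory SMAD7 was higher, at 2.43 against 0.988 FPKM (1.10 ± 0.19, adjusted p = 7.30e-05). The inhibitory SMAD6 was at the floor in PATU-8988T and ran from 0.987 to 1.92 FPKM in PATU-8902, and the activin subunit INHBA was at the floor in PATU-8988T, with 0.0968 to 0.481 FPKM in PATU-8902.

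Genes known to respond to TGF-beta or BMP signals differed widely between the lines. Of 14 tested, CDKN2B among them, 10 were higher and 3 lower in PATU-8902 on both scales, beside the same shares of all tested genes, and the median difference was 1.64 as deposited and 1.14 median-centred, beside the same 0.45 and -0.05. The BMP target ID1 had medians of 0.529 FPKM in PATU-8988T and 153 FPKM in PATU-8902 (6.62 ± 0.23, adjusted p = 2.69e-14). The feedback inhibitor PMEPA1 had 0.211 and 85.5 FPKM (6.15 ± 0.18, adjusted p = 2.25e-15). ID1 and PMEPA1 had medians under 1 FPKM in PATU-8988T, and their PATU-8902 levels carried them past the filter on low values. Their tests therefore add little to the levels, and the counts above include them. The matrix protein gene TGFBI had 3.58 and 280 FPKM (5.61 ± 0.31). CTGF, a matricellular gene also driven by YAP, was lower in PATU-8902, at 5.61 against 180 FPKM (-5.10 ± 0.27, adjusted p = 9.57e-12). COL1A1 and ITGB6 were at the floor in PATU-8988T and under 1 FPKM in PATU-8902. Whether the SMAD4 level has a part in these differences was not tested.

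Among SWI/SNF subunits, the complex of ARID1A, 22 of 22 were tested, and 6 were higher and 6 lower in PATU-8902 as deposited, with 5 and 14 median-centred. The shares of all tested genes on the same scales were 41.8% higher and 12.4% lower, and 34.4% and 37.8%. The list's median difference was 0.17 and -0.34, beside 0.45 and -0.05 for all tested genes. SMARCA4, one of the alternative ATPases, had medians of 1.14 FPKM in PATU-8988T and 41.7 FPKM in PATU-8902 (4.13 ± 0.22, adjusted p = 9.75e-12). SMARCA2, the other ATPase, went the opposite way, at 14.8 and 2.24 FPKM (-2.36 ± 0.21, adjusted p = 1.49e-08). PBRM1, a subunit of the PBAF form, was lower in PATU-8902 as ARID1A was, at 27.8 against 3.60 FPKM in the same order of lines (-2.66 ± 0.22, adjusted p = 7.43e-09).

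**Figure D3:**
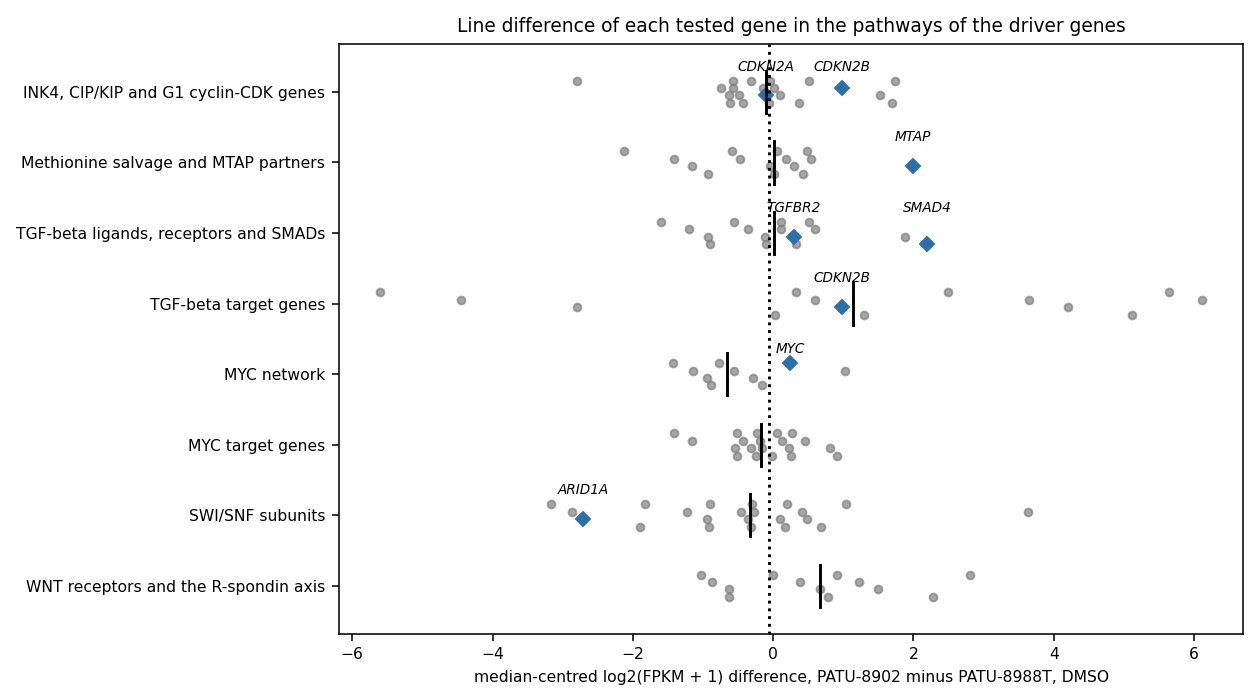
Median-centred log2(FPKM + 1) difference, PATU-8902 minus PATU-8988T in DMSO, of each tested gene (grey points; blue diamonds are the driver genes) in 8 lists, with the list median (black bar) and the median of all tested genes (dotted line). The TGF-beta targets spread over the widest range, with 10 higher and 3 lower, and ARID1A lies among the lowest SWI/SNF subunits.

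Of 21 tested INK4, CIP/KIP and G1 cyclin-CDK genes, 6 were higher and 1 lower in PATU-8902 as deposited, and 6 and 9 median-centred, beside 41.8% and 12.4%, and 34.4% and 37.8%, of all tested genes. Their median difference was 0.40 and -0.10. The 1 lower gene was the inhibitor CDKN1A, at 6.55 FPKM in PATU-8988T and 1.33 FPKM in PATU-8902 (-2.29 ± 0.21, adjusted p = 2.36e-08). The inhibitor CDKN1B was higher, at 12.9 and 61.6 FPKM (2.24 ± 0.24), as were the kinase CDK6, at 10.2 and 46.2 FPKM (2.19 ± 0.22), and its cyclin CCND1, at 35.5 and 159 FPKM (2.02 ± 0.29). Of 15 tested genes of methionine salvage and the partners of MTAP, 6 were higher and 2 lower as deposited, and 6 and 6 median-centred, beside the same shares. Their median difference was 0.52 and 0.02. MRI1, the isomerase that acts directly after MTAP, was lower in PATU-8902, at 1.04 against 4.34 FPKM (-1.62 ± 0.21, adjusted p = 3.49e-06). APIP, the dehydratase that follows it, was higher, at 54.9 against 24.8 FPKM (1.04 ± 0.27), and so was the decarboxylase AMD1, at 71.0 against 38.4 FPKM (0.98 ± 0.25).

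The genes around MYC were read next. Of 10 tested genes of this network, MYC included, 1 was higher and 2 lower as deposited, and 1 and 6 median-centred (all tested genes: 41.8% and 12.4%, and 34.4% and 37.8%), with median differences of -0.16 and -0.66, beside 0.45 and -0.05 for all tested genes. MLX, the partner of the MXD and MLXIP proteins, was higher (1.53 ± 0.31, adjusted p = 3.68e-04), and the antagonist MXD4 (-0.93 ± 0.24) and MLXIP (-0.64 ± 0.25) were lower. The glucose-responsive MLXIPL was at the floor in PATU-8988T and under 1 FPKM in PATU-8902. Of 20 MYC target genes, 6 were higher and 1 lower as deposited, and 5 and 8 median-centred, beside the same shares of all tested genes. Their median difference was 0.33 and -0.17. The ribosome biogenesis genes DDX21 (1.41 ± 0.27) and NOP58 (1.32 ± 0.28) and the nucleotide kinase gene NME1 (0.95 ± 0.36) were higher in PATU-8902, and the polyamine enzyme ODC1 was lower (-0.91 ± 0.31, adjusted p = 0.0179).

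Of 23 listed WNT receptor and R-spondin axis genes, among which are the receptors on which RNF43 acts, 13 were tested and 10, RNF43 included, did not reach a mean of 1 FPKM. Of the 13, 9 were higher and 1 lower in PATU-8902 as deposited, and 8 and 4 median-centred, beside 41.8% and 12.4%, and 34.4% and 37.8%, of all tested genes. Their median differences were 1.16 and 0.66, beside 0.45 and -0.05. The frizzled receptors FZD7 (1.18 FPKM in PATU-8988T and 21.1 FPKM in PATU-8902), FZD5 (1.87 and 19.3 FPKM) and FZD4 (1.03 and 5.63 FPKM) and the co-receptor LRP6 (3.82 and 19.6 FPKM) passed on both scales. ZNRF3, the paralogue of RNF43 and itself one of the listed WNT target genes, was expressed in both lines, at 2.20 and 4.98 FPKM (0.88 ± 0.20, adjusted p = 8.90e-04). Of 12 WNT target genes only 4 were tested. Of these, 3 were higher and 0 lower as deposited and 3 and 1 median-centred, beside the same shares of all tested genes. The antagonist DKK1 (1.43 and 128 FPKM) and the transcription factor TCF7 (1.18 and 20.9 FPKM) led them, and the feedback gene NKD1 was at the floor in PATU-8902 and had a median of 0.274 FPKM in PATU-8988T.

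The inhibitor moved no driver gene past the threshold. None of the 7 tested members passed limma's test in PATU-8988T at 6 h or 24 h or in PATU-8902 at 6 h or 24 h, beside 0%, 0%, 0.00871% and 0.113% of all tested genes as deposited and 0.0784%, 0%, 0.113% and 0.444% median-centred. At an unadjusted p under 0.05 the members numbered 0, 1, 0 and 0 as deposited and 2, 1, 0 and 0 median-centred. No gene of the pathway lists passed in these comparisons on either scale. Between 24 h and 6 h no member passed in either line, beside 0% and 0% of genes as deposited and 0% and 0.244% median-centred, and none passed in the difference between the lines of the 6 h and 24 h effects, beside 0% and 0.00871% as deposited and 0% and 0.227% median-centred.

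CDKN2A in PATU-8988T came nearest to the threshold. Its mean was 44.4 ± 21.5 FPKM (SD) in DMSO, 28.8 ± 8.03 at 6 h and 23.6 ± 2.41 at 24 h, and the DMSO replicates ranged from 20.9 to 62.9 FPKM, a range that took in most of the drug-treated libraries. The difference from DMSO was -0.51 ± 0.33 at 6 h (adjusted p = 1.00) and -0.75 ± 0.33 at 24 h (adjusted p = 0.334) as deposited, and -0.49 ± 0.15 (adjusted p = 0.0871) and -0.40 ± 0.15 (adjusted p = 0.295) median-centred. In PATU-8902 it was -0.21 ± 0.33 at 6 h and 0.09 ± 0.33 at 24 h as deposited. The line difference of the 24 h effect was 0.84 ± 0.46 (adjusted p = 0.547). MYC in PATU-8988T was -0.36 ± 0.33 at 6 h and -0.51 ± 0.33 at 24 h as deposited, and -0.35 ± 0.12 (adjusted p = 0.0981) and -0.17 ± 0.12 median-centred. MTAP, higher in PATU-8902 throughout, differed there from DMSO by -0.12 ± 0.25 at 6 h and 0.05 ± 0.25 at 24 h as deposited.

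Some drug groups lay wholly above or below their DMSO libraries without passing the test. As deposited, no member did so in PATU-8988T at 6 h or 24 h or in PATU-8902 at 6 h, beside 2.05%, 1.32% and 2.04% of tested genes. CDKN2B in PATU-8902 at 24 h was above all DMSO libraries (0.31 ± 0.16, adjusted p = 1.00), beside 6.49%. After centring, CDKN2A in PATU-8988T at 6 h was below all DMSO libraries, beside 19.7%, and MYC in PATU-8902 at 24 h was below them (-0.10 ± 0.12, adjusted p = 0.825), beside 13.1%. No member did so after centring in PATU-8988T at 24 h or in PATU-8902 at 6 h, beside 7.56% and 8.03%.

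PATU-8988T DMSO replicate 1 weighed on these results. In it CDKN2A, MTAP, MYC, ARID1A and TGFBR2 were lower than in both other DMSO libraries of the line, and so was the median of all tested genes, at 6.12 FPKM against 12.1 and 10.2 FPKM. The part of this overall level in the results was not tested. Without it, 4 members passed at 24 h as deposited, beside 56.8% of all tested genes: CDKN2A (-1.21, adjusted p = 0.0118), MYC (-0.95, adjusted p = 0.0137), ARID1A (-0.88, adjusted p = 0.0118) and TGFBR2 (-0.66, adjusted p = 0.0369). Median-centred, 4 passed at 6 h, namely CDKN2A (-0.70), MYC (-0.53), ARID1A (-0.22) and CDKN2B (0.51), beside 42.6% of all tested genes, and 5 passed at 24 h, beside 40.8%. Calls thus appeared across the whole table when this library was left out. Each of these calls rests on the 2 DMSO libraries that remained as controls.

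**Figure D4:**
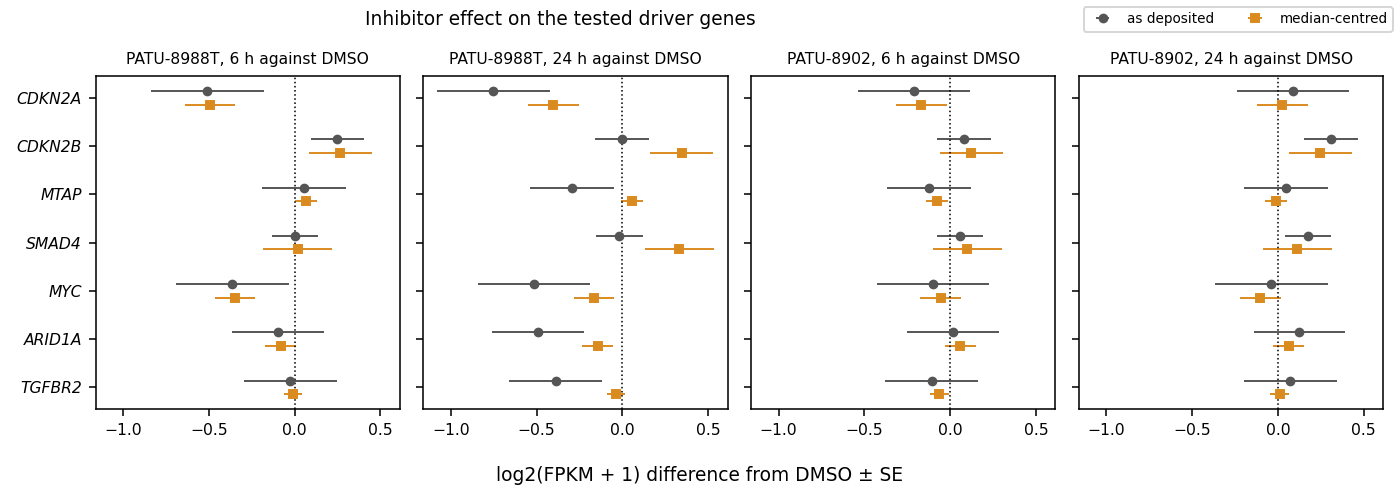
Difference of log2(FPKM + 1) from DMSO, with its SE, of the 7 tested driver genes in each line and at each time, as deposited (grey circles) and median-centred (orange squares). In PATU-8988T at 24 h the deposited values of MYC, ARID1A and TGFBR2 lie at -0.51, -0.49 and -0.39 and move to -0.17, -0.15 and -0.04 after centring; the SMAD4 values in PATU-8988T are those of a gene at the floor.

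The genes whose median-centred pattern over the 18 libraries was most like that of a member are given as a description, since with 2 lines Pearson's r is set largely by the line difference, and all points share libraries and scaling. CDKN2A was most like FOSL1, an AP-1 subunit, with r = 0.973 over 18 libraries and 0.985 after the line means were removed, and next like the phosphatase gene PPM1G (0.951). CDKN2B was most like FAM46A (0.987) and PTPN4 (0.984), and SMAD4 like the endoderm factor FOXA2 (0.998) and SPATA17 (0.998). In PATU-8988T, where SMAD4 is at the floor, its log2 SD was 0.016 as deposited and 0.323 median-centred. Its centred values there are thus mostly the shift of each library, and this likeness says little about SMAD4. MTAP was most like MBOAT2 and EPCAM (0.999 each), where r within lines was 0.687 and 0.629. ARID1A was most like MYL9 and the growth factor receptor FGFR1 (0.999 each), MYC like C19orf53 (0.967) and NMRAL1 (0.962), and TGFBR2 like VMP1 (0.980) and ATP5F1 (0.975). Within lines, r in the same order was 0.775 and 0.763 for ARID1A, 0.937 and 0.9205 for MYC, and 0.778 and 0.7315 for TGFBR2.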

How the data were processed

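Single-end RNA-seq libraries were prepared from polyadenylated RNA with spike-in RNA, per the labels' protocols. The authors deposited 1 table of FPKM values on a linear scale; HISAT, Cufflinks, Cuffnorm and hg19 are named in the submitters' processing notes, without versions. Of 26341 rows, 92 were spike-ins. Values were taken as log2(FPKM + 1), and limma 3.58.1 under R 4.3.3, with its trend option, was fitted to the 11477 genes whose mean reached 1 FPKM, as 6 group means over 18 libraries with 12 residual degrees of freedom. Tests are 2-sided, adjusted by Benjamini-Hochberg across tested genes in each of 11 contrasts, at a threshold of 0.05. The fit was tested on simulated data.

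The members and gene lists were chosen with earlier results of these data known. Named list genes are the 4 with the largest difference past the threshold in DMSO, all genes of the lists around CDKN2A and SMAD4, and genes at the floor in only one line; others are said to be chosen after their values were seen. The planned floor, equality with a library's lowest gene value, found 0 members, because only 1 or 2 rows held that value, so the floor of 1.5 times the shared value was chosen after seeing the data. Pattern likeness used the tested genes. No sequence is printed, and no coordinates, because the values are on hg19.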

Additional observations from a re-analysis of the deposited data

How the results depend on the processing

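The calls of MTAP and ARID1A between the lines kept their direction and their side of the threshold in DMSO, at 6 h and at 24 h under every alternative in which they were tested: a pseudocount of 0.1, no filter, median-centring, no mean-variance trend, a fit of the compared groups alone, spike-in rescaling and leaving out each library. The same held for SMAD4 and CDKN2B where they were tested, which says little, since both passed the filter through PATU-8902 alone. With a filter at a mean of 5 FPKM, 3 of 5 members passed in DMSO, beside 4216 of 8274 tested genes. SMAD4 and CDKN2B were no longer tested there. Leaving out each library gave 4 to 6 member calls in DMSO, 4 to 7 at 6 h and 7 at 24 h as deposited. Of the 11477 tested genes, 5304 to 6760, 4830 to 6379 and 6962 to 8048 passed in the same fits. Median-centred, 5 to 6, 6 and 5 to 7 members passed, beside 7799 to 8661, 7510 to 7691 and 7697 to 7905 of all tested genes. For the inhibitor in PATU-8988T, leaving out each library gave 0 at 6 h and 0 to 4 at 24 h as deposited. Median-centred it gave 0 to 4 and 0 to 5. The line differences of the 6 h and 24 h effects gave 0 as deposited and 0 to 3 and 0 to 2 median-centred. All of these inhibitor calls came from leaving out PATU-8988T DMSO replicate 1, where 56.8% of all tested genes passed at 24 h as deposited, 42.6% at 6 h and 40.8% at 24 h median-centred, and 20.1% and 5.54% in the line differences median-centred. Without this library, and median-centred, 3 calls had a sign opposite to that of the fit as deposited with all libraries. CDKN2A between the lines in DMSO was -0.30 (adjusted p = 0.0323). In PATU-8988T at 24 h, CDKN2B was 0.59 (adjusted p = 0.00813) and SMAD4, which is at the floor, 0.58 (adjusted p = 0.0201). With all libraries kept, the median-centred values already had these signs, at -0.10, 0.35 and 0.33, and did not pass. Why the calls appeared without this library was not tested. Centring shifts genes at the floor by construction. The 24 h difference of CDKN2A between the lines was lost after centring (0.33, adjusted p = 0.0601), and the 6 h difference of TGFBR2 without the filter (adjusted p = 0.0566) and with the compared groups alone (adjusted p = 0.0533). As deposited, the 6 h call of TGFBR2 was also lost without PATU-8988T 6 h replicate 1 (adjusted p = 0.158) or 2 (0.0818). The same held without PATU-8902 6 h replicate 2 (0.167) or 3 (0.0524). The planned floor found 0 members in either line. In PATU-8988T, 1 member was at or below the shared value, 2 within 1.5 times it, 2 under 0.5 FPKM and 2 under 1 FPKM in all 9 libraries; in PATU-8902 these were 0, 1, 1 and 1.

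The replicate numbers did not pair the libraries: same-numbered pairs had correlations of deviations from -0.222 to 0.143, and other pairs from -0.188 to 0.213. With the replicate block, 0 members passed in each comparison within a line and in the line differences of the effects, on both scales. A fixed block could not be fitted with the contrasts between the lines. A replicate block by duplicateCorrelation, added after seeing the data, gave 5, 6 and 7 members in DMSO, at 6 h and at 24 h. In these fits 6233, 5928 and 8188 of the 11477 tested genes passed. What depth limits is unknown, since the table gives no counts.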

Other observations

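Among 25 other genes recurrently altered in pancreatic cancer, 24 were tested, and MAP2K4 had the pattern of SMAD4. MAP2K4, a kinase that activates JNK and p38, was at the floor in all 9 PATU-8988T libraries (0.0631 to 0.0977 FPKM) and ran from 14.1 to 20.9 FPKM in PATU-8902. Its neighbour ZNF18, a zinc finger gene chosen after its values were seen, was at the floor in PATU-8988T as well (at most 0.104 FPKM) and ran from 0.732 to 1.69 FPKM in PATU-8902. ELAC2, on the other side and likewise chosen after its values were seen, was expressed in both lines, with medians of 24.2 and 25.3 FPKM. Of the 20 genes nearest to MAP2K4 with a row, ZNF18 was the 1 at the floor in PATU-8988T alone, and 10 were at the floor in both lines. SLIT2, a guidance ligand of the same list, was also at the floor in PATU-8988T, with 2.35 to 3.92 FPKM in PATU-8902. Over the whole table, 209 of 11244 genes with a PATU-8902 mean of at least 1 FPKM (1.86%) were at the floor in PATU-8988T, and 289 of 10713 (2.70%) the other way round, so this pattern was not limited to genes altered in this cancer.

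Near ARID1A, 3 of the 20 nearest genes were at the floor in PATU-8988T alone. One of them, NR0B2, was also at the floor in 7 of 9 PATU-8902 libraries. The epidermal differentiation gene KDF1, also of these 3, ran from 3.12 to 4.92 FPKM in PATU-8902. NR0B2 and KDF1 were chosen after their values were seen. FAM46B, farther out and chosen in the same way, was higher in PATU-8988T, with medians of 2.30 and 0.184 FPKM.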
